A study of Mus musculus with 27 samples.

Results

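Cyp3a11, Cyp3a13 and Cyp3a16 are 3 mouse genes of the cytochrome P450 3A family. All probe sets that the array annotation assigns to them were taken, alone or together with another gene, which gave 4 of the 12488 probe sets of the array. One represents Cyp3a11, one Cyp3a13 and one Cyp3a16, and the last is shared by Cyp3a16 and Cyp3a11. The data are liver profiles of 27 mice, 1 liver to an Affymetrix array, in groups of 9 that the labels call Dex, Veh and Con. What these names stand for is not written out, and no dose, time, strain, sex, age or genotype is given for any group. No agent or allele shared by all 3 groups is given either. Each value is a linear intensity as deposited, and the scaling step that the authors applied is described with the processing. Precision here rests on the number of arrays, since an intensity carries no read depth. Probe sets brighter than their array's median on at least 9 of 27 arrays were tested (6784 of 12488), 3 of the 4 Cyp3a probe sets among them. A probe set is said to rise, fall or pass where limma's p, adjusted over all 6784, was under 0.05.

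P450 enzymes of the 3A family sit in the endoplasmic reticulum of hepatocytes and enterocytes and oxidise steroids, bile acids and many drugs. Their genes are the textbook targets of the pregnane X receptor (PXR, gene Nr1i2), a nuclear receptor that binds drugs and steroids and acts on DNA together with the retinoid X receptor RXRA. The constitutive androstane receptor (CAR, gene Nr1i3) shares many of its target genes, and HNF4A helps to keep the genes active in liver. Cyp3a11 is the main 3A enzyme of adult mouse liver, and Cyp3a16 was first described in fetal mouse liver. Cyp3a13 is found in liver and in intestine. In RefSeq's gene table for GRCm38.p6, 9 protein-coding Cyp3a genes lie on chromosome 5, with Cyp3a16, Cyp3a41b, Cyp3a41a, Cyp3a44, Cyp3a11 and Cyp3a25 following each other in that order and Cyp3a13 apart from them.

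The promoters of these genes and of the neighbour Cyp3a25 are shown because Cyp3a11 and Cyp3a16 share a probe set while Cyp3a13 and Cyp3a25 gave other patterns between the groups. Each sequence, from RefSeq (GRCm38.p6), runs 5′ to 3′ on the strand of the gene, from 250 bases before to 50 bases after an annotated start. All 4 genes matched a window of the promoter table, and that of Cyp3a13 belongs to a start inside the gene. Capitals mark 4 motifs sought on both strands. The first, AGGTCA, is a half-site that nuclear receptors such as PXR and CAR can bind. The next, AGTTCA, differs from it by a single letter. HNF4A binds sequences of the kind CAAAGTCCA. The last, ATATAA, is a TATA-like run.
Cyp3a11, chr5:145879805-145880104, minus strand: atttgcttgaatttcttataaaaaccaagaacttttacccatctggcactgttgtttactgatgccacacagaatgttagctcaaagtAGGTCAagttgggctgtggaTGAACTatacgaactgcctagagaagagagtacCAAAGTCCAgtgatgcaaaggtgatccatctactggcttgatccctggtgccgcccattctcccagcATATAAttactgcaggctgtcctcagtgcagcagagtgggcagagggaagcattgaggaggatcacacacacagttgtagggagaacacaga
Cyp3a16, chr5:145469674-145469973, minus strand: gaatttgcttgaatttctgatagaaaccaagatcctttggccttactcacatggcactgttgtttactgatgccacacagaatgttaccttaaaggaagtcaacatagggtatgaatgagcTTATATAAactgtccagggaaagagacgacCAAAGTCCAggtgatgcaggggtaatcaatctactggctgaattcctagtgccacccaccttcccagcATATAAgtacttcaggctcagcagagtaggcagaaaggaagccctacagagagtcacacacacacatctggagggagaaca
Cyp3a13, chr5:137921570-137921869, minus strand: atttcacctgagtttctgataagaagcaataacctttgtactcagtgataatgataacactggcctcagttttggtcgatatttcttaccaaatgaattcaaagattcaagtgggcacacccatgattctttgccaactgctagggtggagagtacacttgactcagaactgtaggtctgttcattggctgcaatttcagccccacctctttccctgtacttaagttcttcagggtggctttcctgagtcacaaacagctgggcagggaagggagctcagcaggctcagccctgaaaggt
Cyp3a25, chr5:146009569-146009868, minus strand: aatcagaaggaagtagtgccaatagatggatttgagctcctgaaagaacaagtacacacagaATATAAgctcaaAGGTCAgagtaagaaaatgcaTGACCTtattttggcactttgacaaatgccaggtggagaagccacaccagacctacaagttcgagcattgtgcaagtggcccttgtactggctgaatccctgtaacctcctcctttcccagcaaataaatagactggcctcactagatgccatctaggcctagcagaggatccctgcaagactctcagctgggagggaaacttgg

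The Cyp3a11 window held each of the 4 motifs at 1 place, the second of them on the opposite strand. The Cyp3a16 window held the HNF4A-like motif at 1 place and the TATA-like run at 3, and neither half-site. In it, 2 matches of the TATA-like run on opposite strands overlap each other. The Cyp3a25 window held the first half-site at 2 places, 1 on each strand, and the TATA-like run at 1. That of Cyp3a13 held none of the 4. Among 32817 promoter windows of this length, 16.3% held the first half-site and 14.0% the second. The TATA-like run was in 9.83% of them and the HNF4A-like motif in 0.475%. The motifs were picked after the sequences were read, and a match is a description of letters, not of binding. Aligned end to end with gaps, the windows of Cyp3a11 and Cyp3a16 were identical at 74.8% of columns. Cyp3a11 shared 53.7% with Cyp3a13 and 51.5% with Cyp3a25.

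Some facts of the whole series bear on the results. The arrays differed at their bright end: the 99th percentile of intensity had a median of 4168 in Dex (lowest 3323, highest 5190.5), 4017 in Veh (3307 to 4524) and 3336 in Con (3039 to 3917). The median change over the 6784 tested probe sets was -0.03 for Dex vs Veh, -0.19 for Veh vs Con and -0.20 for Dex vs Con on the log2 scale, against -0.04, -0.02 and -0.04 after quantile normalization. The log2 3′ to 5′ ratio of the beta-actin control averaged 0.886 ± 0.169 in Dex, 1.27 ± 0.318 in Veh and 0.947 ± 0.243 in Con (SD, n = 9 each). Dex 1, Dex 2 and Dex 3 stood apart in glucocorticoid-induced genes. The mean log2 level of 19 such genes, relative to Con, lay between -0.08 and 2.82 in Dex but at most at 0.78 in Dex 4 to 9, between -0.62 and 0.70 in Veh and between -0.53 and 0.69 in Con. Of 8 measured hepatocyte markers, 7 were higher and 1 lower in Dex than in Con, with a median log2 change of 0.30. Between Veh and Con 6 were higher and 2 lower in Veh, with a median of 0.14. Albumin (Alb), 1 of the 8, averaged 14.7, 14.4 and 14.1 log2 intensity in Dex, Veh and Con. Not all followed this order: Fgb was lowest in Dex and highest in Con, and Hnf4a was lowest in Veh.

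Cyp3a11 was among the brightest signals of the liver in every mouse. Its probe set ranked between 43 and 123 of the 12488 probe sets and lay above the array's median on all 27 arrays. Its intensity was 5364 at the lowest, 6503 at the median and 8517 at the highest in Dex. In Veh the lowest was 4198, the median 5485.5 and the highest 6799.7, and in Con they were 3055, 4050 and 7211. The ranges overlap: Con 3 (6992) and Con 5 (7211) lay above 6 and 7 of the Dex mice. No Dex mouse and no Veh mouse lay below the Con median, and 6 of 9 Con mice lay below every Dex mouse.

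Of the 3 Cyp3a probe sets tested, 1 passed the threshold in Dex vs Con, where 16.4% of all tested probe sets passed and 3.26% passed as higher. It was Cyp3a11, which rose in Dex by a log2 change of 0.52 ± 0.15 (SE; limma, adjusted p = 0.0214), a 1.43-fold difference with a 95% interval of 1.15 to 1.78. Mean log2 intensity was 12.66 ± 0.225 in Dex and 12.14 ± 0.457 in Con (SD, n = 9 each). At an unadjusted p under 0.05 there were 2 of the 3, against 31.5% of all tested. The 99th percentile of the arrays was also higher in Dex than in Con, as given above. After quantile normalization, which gives all arrays 1 distribution, the difference was 0.21 ± 0.13 (adjusted p = 0.296). Without Dex 1, Dex 2 and Dex 3 the size was 0.52 ± 0.17 and the adjusted p 0.0664. In a fit that carried the beta-actin ratio the value was 0.53 (adjusted p = 0.0209), and in one with the Gapdh ratio 0.49 (0.0334).

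Between Dex and Veh, 0 of the 3 Cyp3a probe sets passed the limma test, none with an unadjusted p under 0.05. Of all tested probe sets 0.265% passed (0.0442% higher, 0.221% lower) and 15.2% had such an unadjusted p. Cyp3a11 was 0.23 ± 0.15 higher in Dex (log2, SE, limma adjusted p = 0.470, 95% interval -0.08 to 0.54). In this comparison 7 of 9 Dex mice lay above the Veh median. Between Veh and Con, 0 of 3 passed, again none with an unadjusted p under 0.05, against 3.86% and 23.6% of all tested probe sets. Cyp3a11 was 0.29 ± 0.15 higher in Veh (limma adjusted p = 0.251, 95% interval -0.02 to 0.60). The upper ends of these intervals, 0.54 and 0.60, are changes of 1.46-fold and 1.52-fold, so larger differences in Cyp3a11 lie outside them. The 3 comparisons share their groups of mice and are not independent.

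**Figure D1:**
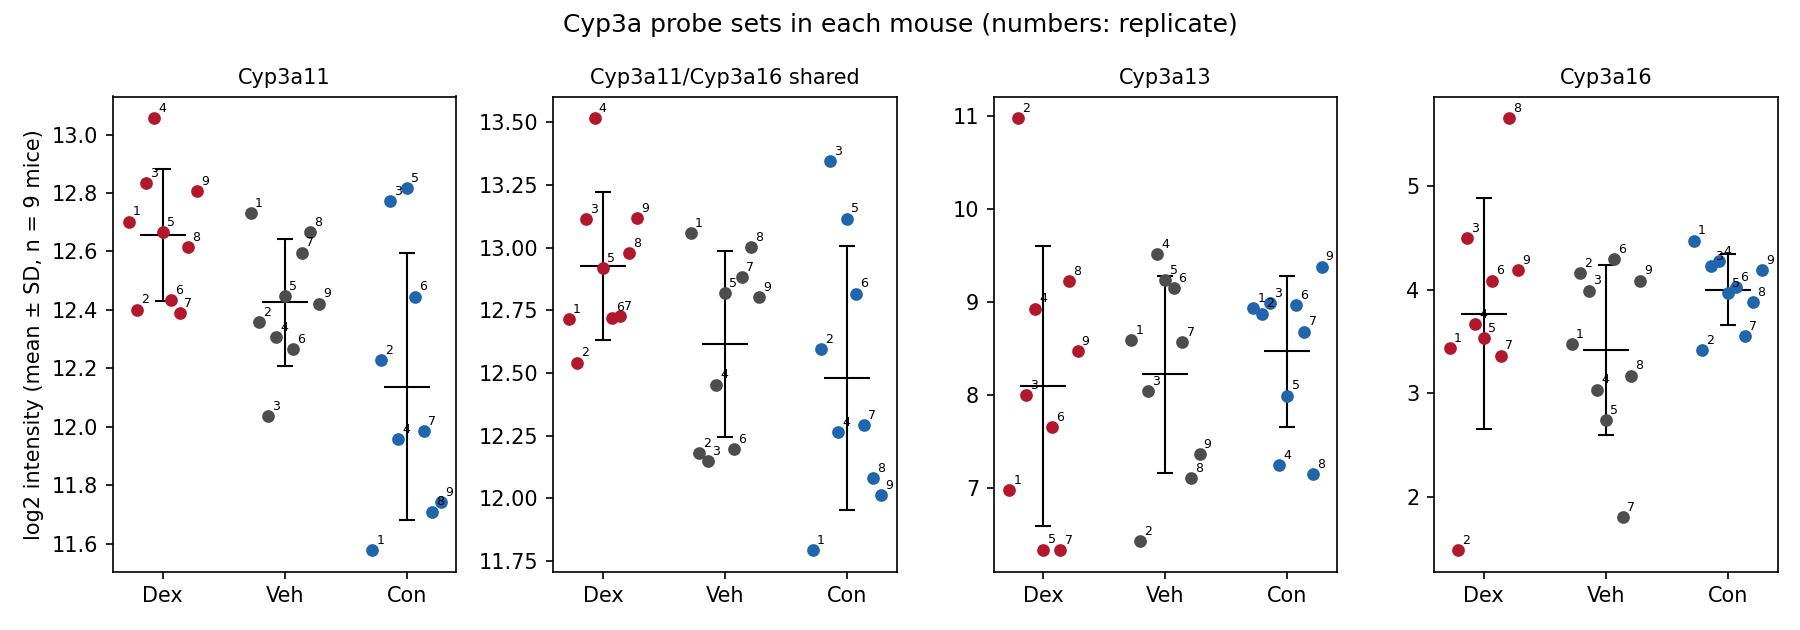
Log2 intensity (vertical axis) of the 4 probe sets in each mouse, by group, with the replicate number beside each point and the mean ± SD of 9 mice in black. Cyp3a11 lies highest in Dex 4 and lowest in Con 1, and Cyp3a13 spans from 80.6 to 2009 (linear intensity) within Dex.

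In the values as deposited, the Cyp3a11 signal was also uneven among Con mice and even among Dex mice. Its within-group SD was 0.225 in Dex, 0.217 in Veh and 0.457 in Con (log2). The median SD of all tested probe sets ran the other way, with 0.566 in Dex, 0.469 in Veh and 0.375 in Con. The SD of Cyp3a11 thus stood at percentile 2.12 of the tested probe sets in Dex, 5.81 in Veh and 64.3 in Con. Those probe sets were not matched to Cyp3a11 for brightness. The highest Cyp3a11 value was 1.59 times the lowest in Dex, 1.62 times in Veh and 2.36 times in Con. After quantile normalization the ranges of Dex and Con were alike. Log2 values then ran from 11.95 to 12.82 in Dex, 12.16 to 12.73 in Veh and 11.92 to 12.84 in Con. No test of these spreads was made.

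**Figure D2:**
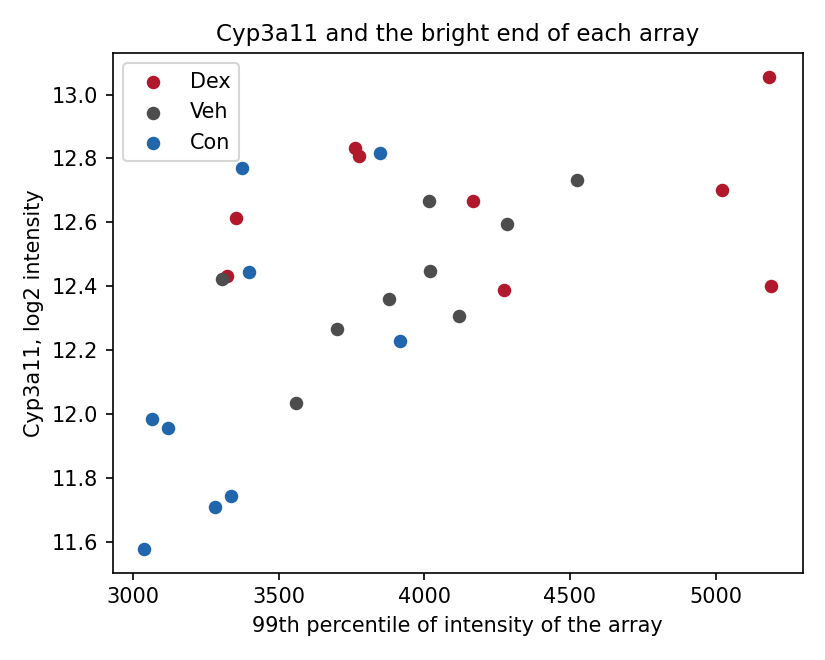
Cyp3a11 log2 intensity (vertical) against the 99th percentile of linear intensity of the same array (horizontal), 1 point per mouse, coloured by group. Con arrays fill the left side, with a median of 3336, and several Dex arrays the right side, with a highest value of 5190.5.

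The probe set shared by Cyp3a11 and Cyp3a16 followed that of Cyp3a11 from mouse to mouse. Its intensity had a lowest value of 5962, a median of 7748 and a highest of 11726 in Dex. In Veh these were 4543, 7153 and 8532, and in Con 3548, 5019 and 10408. In these values as deposited, Dex 4 was the highest mouse and Con 1 the lowest for both probe sets. Con 3 and Con 5 were the highest Con mice for both. Over the 27 arrays the log2 values of the 2 probe sets had a Pearson r of 0.935 and a Spearman rho of 0.939 (within groups, Pearson r = 0.943). These are descriptive values of probe sets that share an array, its scale and, by the annotation, the Cyp3a11 transcript. A signal from Cyp3a16 cannot be told apart from one of Cyp3a11 in this probe set.

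The shared probe set was 0.45 ± 0.19 higher in Dex than in Con on the log2 scale and did not pass (SE, limma adjusted p = 0.0953, 95% interval 0.07 to 0.83). It passed when Con 3 was left out (0.56, adjusted p = 0.0385) or Con 5 (0.53, 0.0499), and after quantile normalization it was 0.12 (0.704). All 9 Dex mice lay above the Con median. Between Dex and Veh it was 0.31 ± 0.19 higher in Dex (limma adjusted p = 0.419), with 5 of 9 Dex mice above the Veh median. Between Veh and Con it was 0.14 ± 0.19 higher in Veh (adjusted p = 0.673), and after quantile normalization the sign turned, with -0.066 (0.897).

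Cyp3a16 on its own gave a signal near background. Its probe set lay above the array's median on 2 of 27 arrays, Dex 8 and Veh 2, and did not enter the tests. The lowest, median and highest intensity were 2.8, 12.7 and 50.4 in Dex. In Veh they were 3.5, 11.1 and 19.6, and in Con 10.7, 16.3 and 22.2, while the floor set on all values was 2.6. The ranges of all 3 groups overlap, and Dex held both the lowest mouse (Dex 2) and the highest (Dex 8). In a fit without a filter the log2 differences were 0.35 ± 0.40 for Dex vs Veh, -0.58 ± 0.40 for Veh vs Con and -0.23 ± 0.40 for Dex vs Con (SE, limma adjusted p = 0.761, 0.491 and 0.796). The log2 signal of this probe set had a Pearson r of -0.07 with the shared probe set over 27 arrays. A low signal here bears on this probe set and does not give the Cyp3a16 level.

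Cyp3a13 varied more between mice of 1 group than between groups. Its intensity in Dex was 80.6 at the lowest (Dex 7), 256 at the median and 2009 at the highest (Dex 2). In Veh the values were 86.4 (Veh 2), 379 and 728 (Veh 4), and in Con 142 (Con 8), 469 and 665 (Con 9). The highest Dex mouse was thus 24.9 times the lowest, against 8.43 times in Veh and 4.69 times in Con. The within-group SD of Cyp3a13 was 1.5 in Dex, 1.06 in Veh and 0.808 in Con (log2), at percentiles 98.5, 93.1 and 89.2 of the tested probe sets. The probe set was above the array's median on all 27 arrays.

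Cyp3a13 passed the test in no comparison. The log2 difference was -0.12 ± 0.49 in Dex vs Veh (SE, limma adjusted p = 0.928, 95% interval -1.12 to 0.88). It was -0.25 ± 0.49 in Veh vs Con (0.783, -1.25 to 0.76) and -0.37 ± 0.49 in Dex vs Con (0.642, -1.37 to 0.63). These intervals reach changes of over 1.5-fold in both directions, so such changes were not detectable with this spread. In each comparison 6 of 9 mice of the first group lay below the median of the second. The sign of the Dex vs Veh difference turned when Dex 1, Dex 5, Dex 7, Veh 4 or Veh 5 was left out, with values between 0.004 and 0.10, and without Dex 2 it was -0.48. Over the 27 arrays Cyp3a13 had a Pearson r of -0.06 with Cyp3a11 and -0.00226 with the shared probe set.

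**Figure D3:**
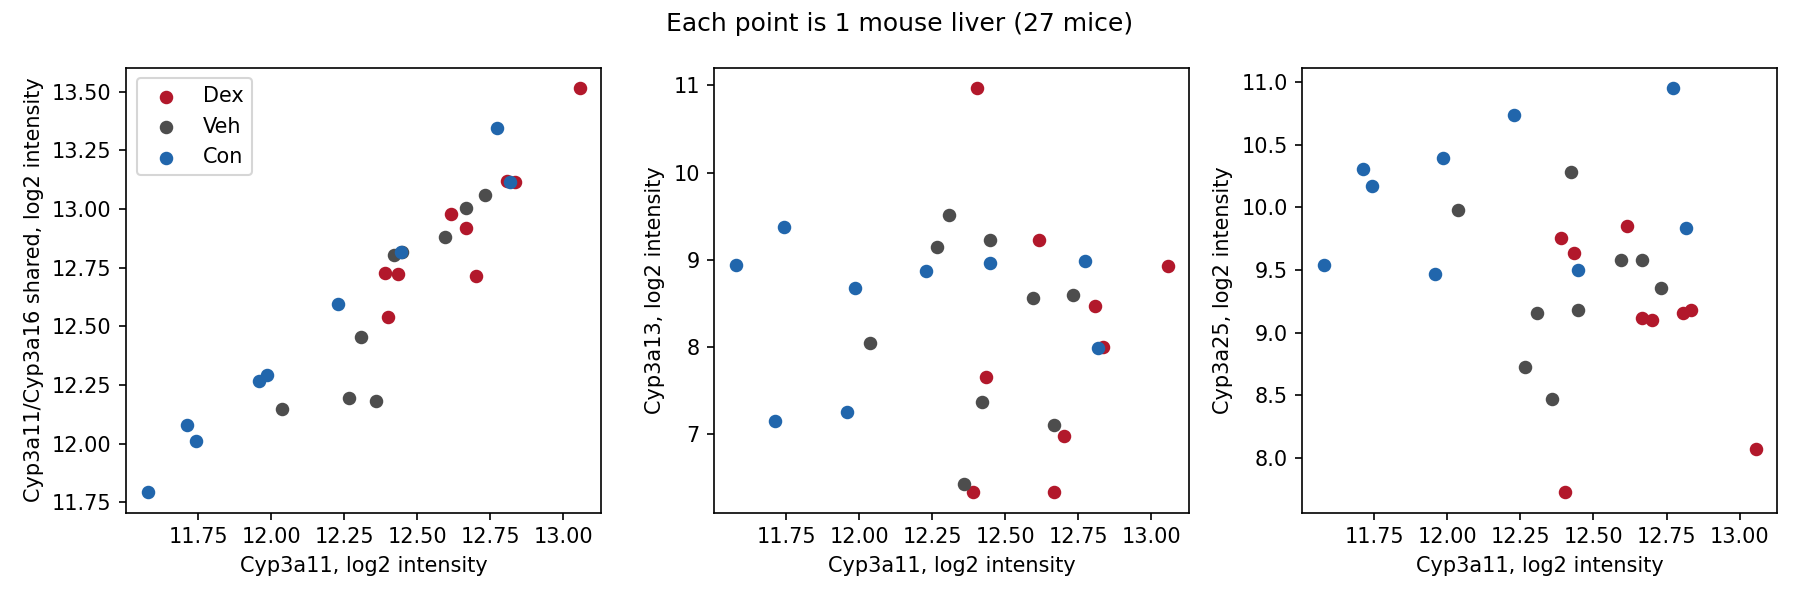
Log2 intensity of the shared probe set, Cyp3a13 and Cyp3a25 (vertical axes) against Cyp3a11 (horizontal axes), 1 point per mouse and coloured by group. The shared probe set lies along a line with Cyp3a11 (Pearson r = 0.935), Cyp3a13 forms no line (r = -0.06), and the Con mice lie high for Cyp3a25.

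Of the other 6 Cyp3a genes listed, Cyp3a25, the neighbour of Cyp3a11 in RefSeq's gene table and also a liver enzyme, had a probe set of its own on the array. It fell in Dex relative to Con by 1.03 ± 0.27 on the log2 scale (SE, limma adjusted p = 0.0110), a level 0.489 times that of Con with a 95% interval of 0.334 to 0.715. Its lowest, median and highest intensity were 212, 571 and 922 in Dex, 355, 654 and 1247 in Veh and 708, 1149.9 and 1983 in Con. All 9 Dex mice lay below the Con median, and 2.8-fold separated the Con mice among themselves. After quantile normalization the value was -1.11 (adjusted p = 0.0121), and without Dex 1, Dex 2 and Dex 3 it was -0.83 (0.0676). The difference was -0.73 ± 0.27 in Veh vs Con (0.104), and passed without Veh 9 (-0.85, 0.0463) or with array weights (-0.74, 0.0276). It was -0.30 ± 0.27 in Dex vs Veh (0.600).

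Set against each other on the same array, Cyp3a11 and Cyp3a25 were farthest apart in Dex. The log2 intensity of Cyp3a11 minus that of Cyp3a25 averaged 3.59 ± 0.818 in Dex, 3.06 ± 0.604 in Veh and 2.04 ± 0.621 in Con (SD, n = 9 each). A difference taken within an array does not depend on its scaling factor. It was 1.55 larger in Dex than in Con, 1.02 larger in Veh than in Con and 0.53 larger in Dex than in Veh, and after quantile normalization these values were 1.33, 0.99 and 0.33. The pair was chosen after both genes had been seen to differ in opposite directions, so these values are a description and no test is given for them.

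**Figure D4:**
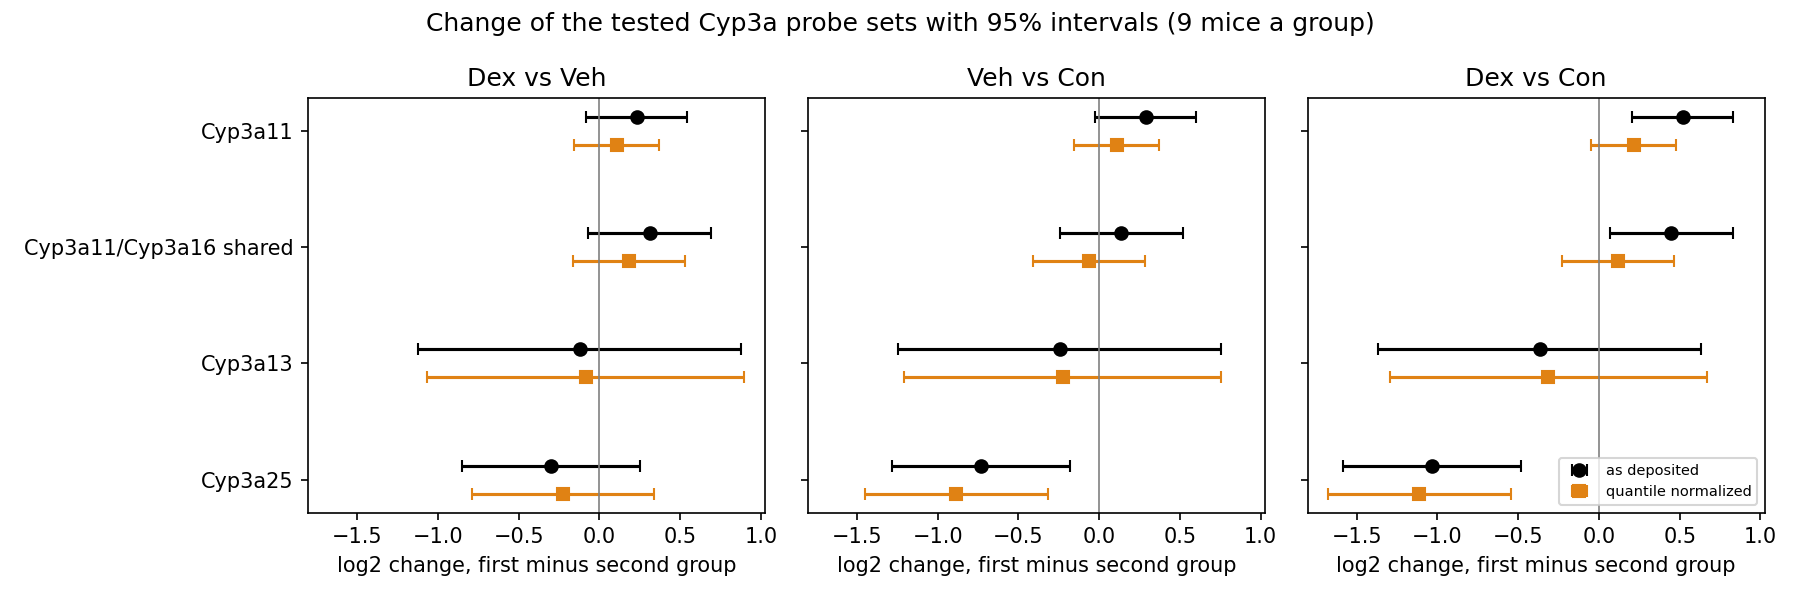
Log2 change (horizontal axis) of the tested Cyp3a probe sets and of Cyp3a25 in the 3 comparisons, with 95% intervals, for the values as deposited (black circles) and after quantile normalization (orange squares). For Cyp3a11 in Dex vs Con the value is 0.52 as deposited and 0.21 after quantile normalization, and for Cyp3a25 it is -1.03 and -1.11.

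Transcription factors that act on these genes were read from a list of 19, of which 15 had a tested probe set. Between Dex and Veh 0 passed the limma test and 3 of 15 had an unadjusted p under 0.05, against 15.2% of all tested probe sets. The smallest p belonged to Hnf4a (1.22 ± 0.29, limma adjusted p = 0.0597) and Ppara (-0.62, 0.205). Between Veh and Con 3 fell and 0 rose, against 2.67% and 1.19% of all tested probe sets: Hnf4a by 1.16 (adjusted p = 0.0281), the bile acid receptor Nr1h4 by 0.88 (0.0326) and the PXR gene Nr1i2 by 0.86 (0.0353). None of these 3 passed after quantile normalization (adjusted p = 0.0824, 0.0687 and 0.253). The beta-actin ratio was higher in Veh than in Con, as given above, and with it as a term none passed either (0.216, 0.104 and 0.177), nor with the Gapdh ratio (0.0894, 0.0844 and 0.0605). With 1 array left out, the call held for Hnf4a in 23, for Nr1h4 in 20 and for Nr1i2 in 17 of 27 fits. In Dex vs Con 1 rose and 1 fell, against 3.26% and 13.2% of all tested probe sets: Nr1i3, which encodes CAR, rose by 0.73 ± 0.21 (0.0171), and Nr1h4 fell by 0.82 (0.0164). The median log2 change of the list was 0.08 for Dex vs Veh, -0.10 for Veh vs Con and -0.17 for Dex vs Con. Without Dex 1, Dex 2 and Dex 3 the fall of Nr1h4 in the last of these did not pass (-0.59, adjusted p = 0.135).

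The receptors themselves gave signals of unlike strength. The PXR gene Nr1i2 averaged a log2 intensity of 5.52 in Dex, 5.29 in Veh and 6.14 in Con, and lay above the array's median on 25 of 27 arrays. It was -0.63 ± 0.23 in Dex vs Con (limma adjusted p = 0.0601) and 0.23 in Dex vs Veh (0.645). For Nr1i3, 3 probe sets were tested, and the brightest, used here, averaged 9.52 in Dex, 9.19 in Veh and 8.79 in Con. Another averaged 9.33, 9.18 and 8.78 in the same groups. The dimmest averaged 8.13, 8.53 and 8.28, so it goes the other way between Dex and Con. The brightest was 0.33 in Dex vs Veh (adjusted p = 0.439) and 0.40 in Veh vs Con (0.242). The glucocorticoid receptor gene Nr3c1 had a probe set above the array's median on 0 of 27 arrays and was not tested.

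Other genes of the PXR and CAR pathway were read from a list of 36 that leaves the Cyp3a genes out. Of these, 26 were on the array and 23 had a tested probe set, Nr1i2 and Nr1i3 among them. Between Dex and Veh 0 passed the limma test, 12 had an unadjusted p under 0.05 (15.2% of all tested probe sets did), and 11 were higher and 12 lower, with a median of -0.0016 (log2), against -0.03 for all tested probe sets. The smallest p belonged to the glutathione transferase Gstm2 (1.22 ± 0.32, adjusted p = 0.0738) and to Cyp2b10, a classical CAR target (2.63 ± 0.69, 0.0739). Between Veh and Con 3 rose and 1 fell, against 1.19% and 2.67% of all tested probe sets. Those that rose were Cyp2b9 (adjusted p = 0.00196), Cyp2c38 (1.01 ± 0.21, 0.00781) and Cyp2c39 (1.52 ± 0.33, 0.00968), and the 1 that fell was Nr1i2. With the beta-actin ratio as a term Cyp2c38 and Cyp2c39 did not pass (adjusted p = 0.0576 and 0.0520). Cyp2b9 averaged 2.20 log2 intensity in Con, near the floor of 1.38, so the size of its change depends on the floor.

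In Dex vs Con 8 of the 23 rose and 1 fell, against 3.26% and 13.2% of all tested probe sets, with a median of 0.15, against -0.20 over all. The 6 with the smallest p were Cyp2c38 (1.29 ± 0.21, limma adjusted p = 3.09e-04), Cyp2b10 (3.98 ± 0.69, 5.67e-04), the canalicular export pump Abcc2 (-1.12 ± 0.21, 0.00108), Cyp2b9 (0.00183), Cyp2c39 (1.49 ± 0.33, 0.00352) and Gstm3 (1.16 ± 0.28, 0.00766). Cyp2b10 averaged 9.32 log2 intensity in Dex, 6.69 in Veh and 5.33 in Con. Abcc2, which passes conjugates into bile, averaged 5.76, 6.19 and 6.88 in the same order of groups. Each of these 6 but Gstm3 (adjusted p = 0.0516) also passed without Dex 1, Dex 2 and Dex 3, where the change of Cyp2b10 was 2.57 (0.00803) in place of 3.98. All 6 held after quantile normalization. Cyp2c38, Cyp2c39 and the glutathione transferases belong to families of near-identical genes, whose probe sets may share signal. The other 3 that rose were Gstm1, Gstm2 and Nr1i3.

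Sex-biased liver genes were listed because several mouse Cyp3a genes belong to that class, and 6 of 22 had a tested probe set. For Dex vs Veh 0 passed and 0 had an unadjusted p under 0.05, against 15.2% of all tested probe sets. The smallest p belonged to the steroid hydroxylase Cyp17a1 (0.64, limma adjusted p = 0.461) and the elongase Elovl3 (-0.77, 0.518). In Veh vs Con 1 of the 6 rose (Cyp2b9) and 1 fell, against 1.19% and 2.67% of all tested probe sets. The one that fell was the oxysterol hydroxylase Cyp7b1 (-2.71 ± 0.58, 0.00925), which did not pass with the beta-actin ratio as a term (0.0751). In Dex vs Con 1 rose (Cyp2b9) and 2 fell, against 3.26% and 13.2% of all tested, Cyp7b1 (-1.93 ± 0.58, 0.0223) and the steroid dehydrogenase Hsd3b5 (-3.48 ± 1.11, 0.0321). Without Dex 1, Dex 2 and Dex 3 the values of the last 2 were -1.66 (0.0962) and -1.94 (0.249). Hsd3b5 also did not pass without a filter (0.0510) or with the Gapdh ratio (0.0522).

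Glucocorticoid-induced genes were listed for 1 reading of the name Dex, and 19 of 22 had a tested probe set. Between Dex and Veh 0 passed, 8 had an unadjusted p under 0.05, against 15.2% of all tested probe sets, and 18 of 19 were higher, against 46.6%. The median was 0.64, against -0.03 over all. The smallest p belonged to Tdo2 (0.97, limma adjusted p = 0.0597) and Tat (1.12, 0.0643), enzymes of tryptophan and tyrosine breakdown. Between Veh and Con 0 passed and 2 of 19 had an unadjusted p under 0.05, against 23.6% of all tested probe sets. The 2 were Lcn2 (2.19, limma adjusted p = 0.165) and Igfbp1 (1.74, 0.201), and the median was -0.27, against -0.19 over all. In Dex vs Con 5 rose and 0 fell, against 3.26% and 13.2% of all tested, with a median of 0.57, against -0.20: Lcn2 (5.56, 5.95e-04), Tat (1.18, 0.00705), Tdo2 (0.70, 0.0371), Ddit4 (1.63, 0.0426) and Igfbp1 (2.39, 0.0469). Of these 5, Lcn2 alone passed without Dex 1, Dex 2 and Dex 3. After quantile normalization Tat (adjusted p = 0.0507) and Tdo2 (0.331) did not pass. With 1 array left out, the calls of Tdo2, Ddit4 and Igfbp1 held in 19, 19 and 12 of 27 fits. Cyp3a11 had 6663, 5409 and 7300.4 intensity in these 3 mice, between the lowest and the highest of the other Dex mice.

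Some markers of cell types differed between Dex and Con as well, where 3.26% of all tested probe sets rose and 13.2% fell, with a median of -0.20. Of 8 tested hepatocyte markers, 3 rose in Dex vs Con: Alb (0.61, limma adjusted p = 0.0276), Apoa1 (0.67, 0.0234) and Cps1 (0.75, 0.00606), with a list median of 0.30. The 1 of the 8 that was lower was Fgb (-0.39, 0.183). Between Veh and Con the marker Hnf4a fell, as given above. The mean level of this list relative to Con lay between -0.28 and 0.67 in Dex, between -0.21 and 0.30 in Veh and between -0.28 and 0.41 in Con. Of 11 tested macrophage markers 3 fell in Dex vs Con (Cd5l by 0.99, Ctss by 0.95 and Mrc1 by 0.90), with a list median of -0.62. The 1 of the 11 that was higher was C1qc (0.33, limma adjusted p = 0.393). The mean level of the macrophage list lay between -1.22 and 0.002 in Dex, between -1.04 and 0.74 in Veh and between -0.55 and 0.46 in Con. Of endothelial markers 4 of 8 were tested and 1 fell in that comparison, and of intestinal markers 1 of 8 was tested (Fabp2, -0.87, adjusted p = 0.0837). None of these markers passed between Dex and Veh. In direction, all 11 macrophage markers were lower in Dex than in Veh, with a median of -0.44, against -0.03 over all tested probe sets. Of the hepatocyte markers 7 were higher and 1 lower in Dex than in Veh, with a median of 0.22. At an unadjusted p under 0.05 there were 2 of 8 hepatocyte, 3 of 11 macrophage, 1 of 4 endothelial and 1 of 1 intestinal markers. Of all tested probe sets, 15.2% had such a p in that comparison. In whole liver, fewer cells of a type and less RNA per cell cannot be told apart. The part of these differences in the Cyp3a11 difference was not tested. The marker calls in Dex vs Con were not looked at under quantile normalization or the other alternatives. Alb, Apoa1 and Cps1 averaged 14.7, 14.6 and 13.3 log2 intensity in Dex, at the bright end where the arrays differed.

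The genes most like Cyp3a11 over the 27 arrays, by Pearson r of log2 intensity and leaving out Cyp3a genes, were Cnbp (0.748), the plasma retinol carrier Rbp4 (0.709), Atp5md (0.684), Atp5c1 (0.676) and Gstm1 (0.670). Within groups these values were 0.635, 0.664, 0.534, 0.595 and 0.511. The least like were Adam10 (-0.720) and Sin3a (-0.717). For the shared probe set they were Rbp4 (0.664), Atp5c1 (0.621), Cnbp (0.619), Aldh2 (0.592) and Pgk1 (0.576), with Thumpd1 (-0.688) and Tgm2 (-0.667) the least like. For Cyp3a13 they were Nt5dc3 (0.632), Cdv3 (0.614), Pak2 (0.592), Otud4 (0.584) and Ppp1r15a (0.572), with Git1 (-0.637) and Mark2 (-0.637) the least like. All points share the scale of their array, and these values describe likeness alone.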

How the data were processed

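The authors deposited 1 linear intensity per probe set and array, scaled by 1 factor per array (2% trimmed mean 100.1 to 100.2 on each, as found in the values). RNA purification and target labelling followed the labels' protocols. The platform comes from the annotation header, while for the summary software and the scaling target the sources used here are silent. A floor at the 10th percentile of positive values (2.6) was applied before log2. Probe sets above their array's median on at least 9 of 27 arrays were tested, without 66 controls (6784 of 12488). Group means of all 27 arrays were fitted with limma 3.58.1 in R 4.3.3 (24 residual degrees of freedom, mean trend, two-sided, Benjamini-Hochberg over 6784 probe sets, threshold 0.05), checked on simulated data. Changes are first minus second group. A listed gene with several tested probe sets is represented by the brightest. The annotation gives 1 symbol to 10855 probe sets, several to 396 and none to 1237, and symbols were compared by gene number with RefSeq's table (10839 matches, 0 changed). Named are all Cyp3a probe sets; of the pathway, regulator, sex-biased and glucocorticoid lists, members past the threshold (at most 6) or else the 2 with the smallest p; Nr1i2 and Nr1i3; and the genes most and least like each member. Members and lists were chosen with earlier results of these data known. Each mouse is a separate animal per the labels, and the scale of the arrays was varied by quantile normalization, among the alternatives given at the end.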

Additional observations from a re-analysis of the deposited data

How the results depend on the processing

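Among the probe sets of Cyp3a11, Cyp3a13 and Cyp3a16, 1 call was made, that of Cyp3a11 in Dex vs Con. It held in 37 of 39 alternatives, with adjusted p up to 0.0488 when 1 array was left out (without Con 1), and was lost with quantile normalization (0.21, adjusted p = 0.296) and without Dex 1, Dex 2 and Dex 3 (0.52, 0.0664), which has fewer samples. The shared probe set in Veh vs Con turned sign with quantile normalization (-0.066). In Dex vs Con it was 0.36 to 0.56 when 1 array was left out, passing without Con 3 or Con 5. Cyp3a13 in Dex vs Veh was -0.48 to 0.10 when 1 array was left out. The neighbour Cyp3a25 lost its call in Dex vs Con without Dex 1, Dex 2 and Dex 3 (-0.83, adjusted p = 0.0676), and in Veh vs Con it passed with array weights (-0.74, 0.0276) and without Veh 9 (-0.85, 0.0463). The other differences of the 3 tested Cyp3a probe sets of these genes kept their sign and side of the threshold in all alternatives run. The Cyp3a16 probe set was read from the fit without a filter alone, so its dependence on the processing was not looked at. The cause was not tested.

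Counts of called probe sets over all genes moved more. In Dex vs Veh 18 passed, with 7 without a filter, 3 with the replicate block, 5 without a mean trend, 4 with array weights, and 1 each without Dex 1, Dex 2 and Dex 3, with the beta-actin ratio or with only the 2 groups. Leaving out 1 array gave 4 to 124 (over 1.5 times away for 21 of 27 arrays). In Veh vs Con 262 passed, of which 30.9% were higher, against 85 and 52.9% with quantile normalization. The count was 116 without a filter, 453 without Dex 1, Dex 2 and Dex 3, 33 and 75 with the beta-actin and Gapdh ratios, 1158 with array weights, 656 with only the 2 groups, and 85 to 586 with 1 array left out (12 of 27 over 1.5 times away). In Dex vs Con 1115 passed, with 659 under quantile normalization, 405 without Dex 1, Dex 2 and Dex 3, and 785 to 1488 with 1 array left out. The replicate numbers are shared by the groups, and deviations of same-numbered mice correlated between -0.20 and 0.19. For Dex vs Veh, 3 of 9 mice were most like the mouse of their own number. The count was 1 for Veh vs Con and 2 for Dex vs Con. These low values do not bear out a pairing, but whether the numbers mark a shared batch was not tested. With the replicate block Cyp3a11 in Dex vs Con had an adjusted p of 0.0401, and no Cyp3a call changed. Precision is limited by 9 arrays a group, and that of Cyp3a16 by a signal near background.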

Other observations

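Some acute phase genes, which hepatocytes raise in inflammation, rose in Dex livers relative to Con. Of 21 tested members of 24 listed, 6 rose and 0 fell in Dex vs Con, where 3.26% of all tested probe sets rose and 13.2% fell. Without regard to the test, 16 were higher and 5 lower (Orm1, Fgb, Fga, Itih4 and Crp, named after their values were seen), with a list median of 0.43 (log2, against -0.20 for all tested probe sets). Saa2 (2.71, limma adjusted p = 0.0203), Saa3 (2.07, 0.0188), Orm3 (2.16, 3.09e-04), the hemoglobin scavenger Hp (0.75, 0.0165), Lcn2 (5.56, 5.95e-04) and Serpina3n (1.07, 0.0118) were those that rose. Of these calls, that of Lcn2 alone was looked at under quantile normalization and the other alternatives. In Veh vs Con 1 of 21 rose, against 1.19% of all tested. There too 16 were higher and 5 lower, with a median of 0.39, against -0.19 for all tested. The shift of the list relative to Con was thus not particular to Dex. Between Dex and Veh 0 of 21 passed the limma test, with 6 at an unadjusted p under 0.05, against 15.2% of all tested.

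In the values as deposited, Dex 2 had the highest Cyp3a13 (2009), the lowest Cyp3a16 (2.8) and the lowest Cyp3a25 (212) of all 27 mice. Its Cyp3a11 (5409) was next to the lowest of the Dex mice. Dex 4 had, as deposited, the highest Cyp3a11 (8517) and, after Dex 2, the lowest Cyp3a25 (270) of the 27 mice. Its array was among the brightest, with a 99th percentile of 5182. After quantile normalization the log2 Cyp3a11 value of Dex 4 was 12.55, and Con 3 was the highest mouse with 12.84.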
